A study of Mus musculus with 10 samples.

Results

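The type I interferon-stimulated genes were measured in splenic type 2 conventional dendritic cells (cDC2), the antigen-presenting subset that primes CD4 T cells, on 10 one-colour arrays. Of 37 listed genes, 35 were measured among 19938 genes in all, each by the brightest probe set that named the gene alone. Isg15 lay only on a probe set that named several genes and Ifi44 matched no named probe set, so neither was used here. The cDC2 came from WT mice or from CD11c-Cre+ Notch2f/f mice, called Notch2-11cKO, in which Cre is driven by the CD11c promoter and so acts in CD11c-expressing cells in general, not in cDC2 alone. Mice were untreated, or 24 hours earlier had been given 200000000 sheep red blood cells (SRBC), a foreign particulate antigen, by the intraperitoneal route. There were 2 arrays of WT untreated, 2 of Notch2-11cKO untreated, 3 of WT SRBC and 3 of Notch2-11cKO SRBC. Whether each array held the cells of a separate mouse is not stated in the labels, nor are age, sex and strain, so p-values measure the spread between these arrays, which may in part be technical. All groups shared the same handling, namely digestion of the spleen with Collagenase B and DNAse, enrichment of CD11c+ cells and sorting.

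Type I interferons (interferon-beta and the interferon-alphas) bind the receptor chains IFNAR1 and IFNAR2, which activate the kinases JAK1 and TYK2. These phosphorylate STAT2, which acts with IRF9 at a DNA element called the interferon-stimulated response element in the promoters of their target genes. The products include RNA sensors, IFIT proteins, oligoadenylate synthetases, Mx GTPases and the ISG15 conjugation system, and dendritic cells express many of them at a steady level even without infection.

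Promoter sequence was available from RefSeq (GRCm38.p6) for 26 of the 35 measured genes, as a window of 300 bases that ran from 250 before to 50 after the start of the gene. The core of the response element, GAAA and GAAA with 2 bases of any kind between them, on either strand, occurred in the windows of 11 of these 26 genes (42.3%) and in 3.99% of the 27025 genes of the table. The gamma-activated site TTCNNNGAA occurred in 6 of the 26 (23.1%) and in 9.55% of all genes. The 5 stretches below are shown because the results on Ifit1, Ifit3, Rsad2, Stat2 and Bst2 come up repeatedly; capitals mark matches to the response element core, and each is written 5′ to 3′ on the strand of its gene.
Ifit1, chr19:34640745-34640853 (+): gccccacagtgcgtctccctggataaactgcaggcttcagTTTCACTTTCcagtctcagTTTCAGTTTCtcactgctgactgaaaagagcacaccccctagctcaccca
Ifit3, chr19:34583333-34583456 (+): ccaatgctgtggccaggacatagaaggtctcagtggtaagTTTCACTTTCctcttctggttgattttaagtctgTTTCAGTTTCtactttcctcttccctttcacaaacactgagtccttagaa
Rsad2, chr12:26456523-26456612 (-): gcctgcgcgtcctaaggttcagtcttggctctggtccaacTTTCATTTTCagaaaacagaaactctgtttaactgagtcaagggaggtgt
Stat2, chr10:128270249-128270312 (+): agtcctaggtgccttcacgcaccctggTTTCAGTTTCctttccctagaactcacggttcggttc
Bst2, chr8:71537547-71537642 (-): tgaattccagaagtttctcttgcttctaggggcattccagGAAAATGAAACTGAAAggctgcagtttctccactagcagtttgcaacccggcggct
The Ifit1 stretch held 2 matches, whose first bases lay 104 and 85 bases before the start. Those of Ifit3 lay 156 and 122 bases before it, that of Rsad2 120 and that of Stat2 222, and the 2 of Bst2, at 130 and 124, overlapped each other. Among the other genes with a window, Ddx58, Ifih1, Oas1a, Oas3, Eif2ak2 and Ifitm3 also held a match. A match describes these letters only and does not show that a factor was bound.

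The deposited linear intensities, which the authors had normalized across arrays, were taken to log2; medians per array ran from 29.5 to 31.7, and precision is limited by how few arrays there were. Within a group 2 arrays stood apart over the 9969 brighter genes: WT SRBC 1 (Pearson r across genes 0.9286 and 0.9282 to the other WT SRBC arrays, which correlated at 0.9836 with each other) and Notch2-11cKO SRBC 3 (0.9467 and 0.9359, against 0.9723). The Notch2 probe set was not lower in Notch2-11cKO (0.14 ± 0.26, adjusted p = 0.915, without treatment), but its position relative to the deleted part is not given, so it does not check the label. The Notch targets Hes1 and Dtx1 differed by -2.60 ± 0.26 (adjusted p = 0.000143) and -2.41 ± 0.33 (adjusted p = 0.00122) between the untreated genotypes. After SRBC Hes1 differed by -0.088 ± 0.21 and did not pass (adjusted p = 0.892). Dtx1 then differed by -1.09 ± 0.27 (adjusted p = 0.0403). Of genes shared by conventional dendritic cells, H2-Ab1 ran from 11.90 to 12.44, Itgax from 9.02 to 10.51 and Flt3 from 8.49 to 9.79 over the 10 arrays, and of those that mark cDC2 among them Sirpa ran from 9.51 to 10.66 and Irf4 from 6.85 to 8.78. Of 12 cDC2 markers 3 were lower in Notch2-11cKO without treatment, Clec4a4 (-4.09 ± 0.35, adjusted p = 5.84e-05), Esam (-1.84 ± 0.33, adjusted p = 0.00664) and Cd4 (-1.03 ± 0.22, adjusted p = 0.0202). After SRBC Clec4a4 and Esam were lower and Itgam was higher (1.82 ± 0.17, adjusted p = 0.000101). Over all genes 2.16% were lower without treatment, and 1.96% were lower and 3.36% higher after SRBC. Each difference in the text is on the log2 scale, ± the standard error of a limma fit to all 10 arrays, with Benjamini-Hochberg adjusted p-values computed across all genes and a threshold of 0.05. The cells were profiled in bulk, so fewer cells of a type and less RNA per cell cannot be told apart.

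Within groups the interferon-stimulated genes had a wider spread than the brighter genes as a whole. Their median within-group SD was 0.342 in WT SRBC, 0.309 in Notch2-11cKO SRBC, 0.236 in WT untreated and 0.163 in Notch2-11cKO untreated, against 0.215, 0.212, 0.116 and 0.126 over the brighter genes. The array with the highest level was Notch2-11cKO SRBC 3 for 13 of the 35 (it was highest for 8.87% of all genes) and WT untreated 2 for 12 (7.89%). The array with the lowest level was WT SRBC 1 for 17 of the 35, against 11.9% of all genes. Averaged over the 35, the log2 level was 6.87 and 7.14 on the WT untreated arrays and 6.31, 6.53 and 6.70 on WT SRBC 1, 2 and 3. In Notch2-11cKO it was 6.70 and 6.95 without treatment and 6.71, 6.72 and 7.55 after SRBC. All 3 WT SRBC arrays thus lay below both WT untreated arrays, whereas the Notch2-11cKO groups overlapped and only array 3 of its SRBC group lay above both untreated arrays.

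**Figure D1:**
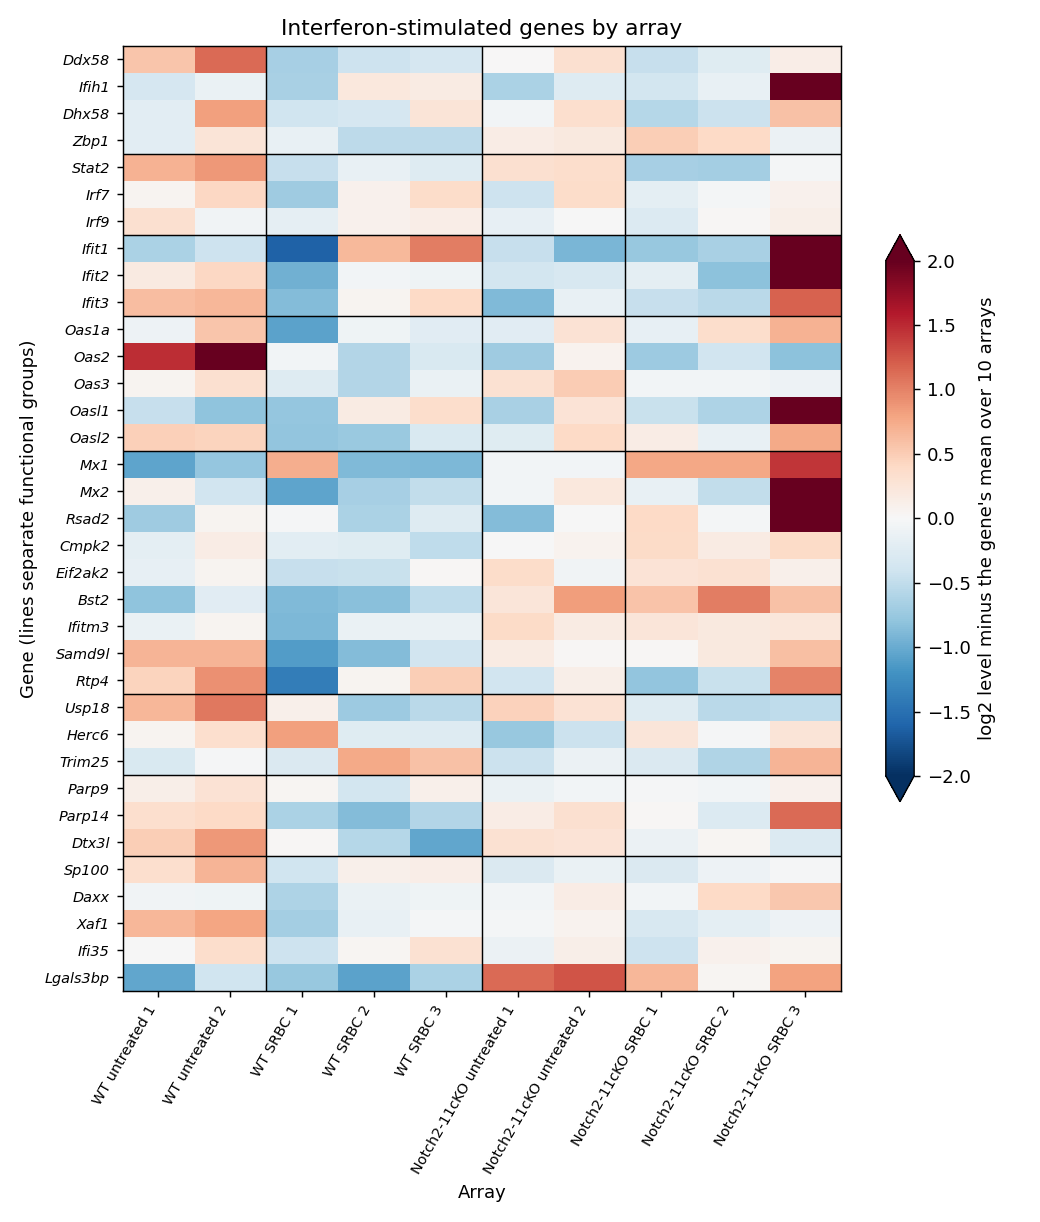
Heat map of the 35 interferon-stimulated genes (rows, in functional groups separated by lines) on the 10 arrays (columns). Colour gives the log2 level minus the gene's mean over the 10 arrays, from -2 (blue) to 2 (red); WT untreated 2 and Notch2-11cKO SRBC 3 hold most of the highest values, at 12 and 13 genes, and WT SRBC 1 is lowest for 17 genes.

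The 3 probe sets with the highest mean level among these genes were those of Ifitm3, Trim25 and Sp100, and none of the 3 passed the threshold in any comparison. Ifitm3, a membrane protein that blocks virus entry, measured 11.69 and 11.87 in WT untreated, 10.92, 11.69 and 11.68 in WT SRBC, 12.20 and 11.98 in Notch2-11cKO untreated and 12.06, 12.01 and 12.04 in Notch2-11cKO SRBC. Every Notch2-11cKO array lay above every WT array (0.61 ± 0.19 after SRBC, adjusted p = 0.0927). Trim25, a ubiquitin ligase that acts on the sensor RIG-I, measured 8.43 and 8.71 in WT untreated, 8.45, 9.50 and 9.33 in WT SRBC, 8.30 and 8.62 in Notch2-11cKO untreated and 8.44, 8.14 and 9.42 in Notch2-11cKO SRBC, so that 3 of the 6 SRBC arrays, WT SRBC 2 and 3 and Notch2-11cKO SRBC 3, stood above all others. Sp100, a component of nuclear bodies with close paralogs in mouse, measured 8.60 and 8.94 in WT untreated, 7.86, 8.36 and 8.40 in WT SRBC, 7.97 and 8.12 in Notch2-11cKO untreated and 7.97, 8.16 and 8.23 in Notch2-11cKO SRBC; the WT untreated arrays were the highest of the 10.

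After SRBC, 7 of the 35 interferon-stimulated genes fell in WT cDC2 and 0 rose, where 3.79% of all genes tested passed the threshold, 1.82% as higher and 1.97% as lower; 12 of the 35 (34.3%) and 16.8% of all genes had an unadjusted p under 0.05. The 7 that fell were Oas2, Samd9l, Ddx58, Usp18, Dtx3l, Stat2 and Xaf1. The median difference of the 35 was -0.43, against 0.025 over all genes, with 29 negative and 6 positive. Every WT SRBC array was below both WT untreated arrays for 18 of the 35 (51.4%, against 15.7% of all genes), and every array was above for 0 of the 35 (17.8% of all genes).

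Among the RNA and DNA sensors, Ddx58 was the one that fell. It encodes RIG-I, which detects viral RNA with a free triphosphate end (probe set 10512067), and measured 7.48 and 8.07 on the WT untreated arrays and 6.26, 6.51 and 6.59 on the WT SRBC arrays. Its Notch2-11cKO arrays measured 6.93 and 7.25 without treatment and 6.46, 6.69 and 7.06 after SRBC. All 3 WT SRBC arrays lay below both untreated arrays, and the level fell by 1.32 ± 0.24 (adjusted p = 0.0117; the adjusted p was 0.149 without WT untreated 2), while in Notch2-11cKO the groups overlapped (-0.35 ± 0.24, adjusted p = 0.686). The other sensors did not pass the threshold in WT: Ifih1, which encodes MDA5, differed by 0.14 ± 0.59, Dhx58, which encodes LGP2, by -0.47 ± 0.37, and Zbp1, a sensor of left-handed nucleic acid, by -0.43 ± 0.23.

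Of the transcription factors downstream of the receptor, Stat2 fell. Stat2 (probe set 10367224), the partner of IRF9, measured 7.72 and 7.89 on the WT untreated arrays and 6.56, 6.88 and 6.76 on the WT SRBC arrays. In Notch2-11cKO it measured 7.34 and 7.36 without treatment and 6.36, 6.35 and 6.99 after SRBC. SRBC arrays were below untreated arrays without overlap in both genotypes; the WT level fell by 1.07 ± 0.22 (adjusted p = 0.0227) and the Notch2-11cKO difference was -0.79 ± 0.22 (adjusted p = 0.193). For the WT fall of Stat2 with any 1 of WT untreated 1, WT untreated 2 and WT SRBC 3 left out the adjusted p lay between 0.0639 and 0.186. Irf7, which amplifies interferon-alpha production, and Irf9, the DNA-binding subunit of the complex, differed by -0.32 ± 0.31 and -0.11 ± 0.20 in WT, and neither passed.

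The oligoadenylate synthetases, which make the activator of RNase L, held the largest fall of the 35. Oas2 (probe set 10533198) measured 8.03 and 8.58 on the WT untreated arrays and 6.50, 5.97 and 6.25 on the WT SRBC arrays. In Notch2-11cKO it measured 5.85 and 6.62 without treatment and 5.83, 6.17 and 5.73 after SRBC. The 2 WT untreated arrays were the highest of the 10 with no overlap, and Oas2 fell by 2.07 ± 0.27 in WT (a 4.19-fold difference, adjusted p = 0.00249). Oasl2, of the same family, differed by -1.07 ± 0.28 in WT and did not pass (adjusted p = 0.0629), although no array overlapped. Oas3, the longest synthetase, differed by -0.52 ± 0.16 (adjusted p = 0.107), also without overlap. Oas1a, one of several near-identical mouse Oas1 copies whose signals may be mixed, differed by -0.69 ± 0.34, and Oasl1, an inhibitor of Irf7 translation, by 0.55 ± 0.84; neither passed.

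Samd9l, a restriction factor of poxviruses, was the one that fell among the 9 other antiviral effectors. Samd9l (probe set 10542911) measured 8.58 and 8.58 on the WT untreated arrays and 6.78, 7.04 and 7.52 on the WT SRBC arrays. In Notch2-11cKO it measured 8.07 and 7.92 without treatment and 7.92, 8.10 and 8.51 after SRBC. The WT SRBC arrays were the lowest 3 of the 10, and Samd9l fell by 1.47 ± 0.24 in WT (adjusted p = 0.00772), against 0.18 ± 0.24 in Notch2-11cKO (adjusted p = 0.873). In WT the adjusted p was 0.104 without WT untreated 1 and 0.0797 without WT untreated 2. Among the rest of the group, WT differences ran from -0.96 ± 0.56 for Rtp4, a receptor chaperone, to 0.56 ± 0.41 for Mx1, a GTPase that blocks orthomyxoviruses; none passed.

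In the ISG15 system, Usp18, the protease that removes ISG15 and restrains IFNAR2 signalling (probe set 10541307), measured 7.22 and 7.61 on the WT untreated arrays and 6.65, 5.83 and 6.02 on the WT SRBC arrays. In Notch2-11cKO it measured 7.02 and 6.85 without treatment and 6.31, 6.01 and 6.06 after SRBC. SRBC arrays lay below untreated arrays in both genotypes with no overlap; Usp18 fell by 1.25 ± 0.24 in WT (adjusted p = 0.0176), and in Notch2-11cKO the difference was -0.81 ± 0.24 (adjusted p = 0.237). In WT with any 1 of WT untreated 1, WT untreated 2, WT SRBC 2 and WT SRBC 3 left out the adjusted p lay between 0.0588 and 0.182. Dtx3l, a ubiquitin ligase that pairs with PARP9 (probe set 10439268), measured 6.97 and 7.34 on the WT untreated arrays and 6.50, 5.91 and 5.44 on the WT SRBC arrays. Its Notch2-11cKO arrays measured 6.78 and 6.75 without treatment and 6.37, 6.51 and 6.21 after SRBC. The SRBC arrays again lay below the untreated arrays in both genotypes, and Dtx3l fell by 1.21 ± 0.27 in WT (adjusted p = 0.0322); with any 1 of WT untreated 1, WT untreated 2, WT SRBC 2, WT SRBC 3, Notch2-11cKO untreated 1, Notch2-11cKO untreated 2 and Notch2-11cKO SRBC 1 left out the adjusted p lay between 0.0524 and 0.252. Its partner Parp9 differed by -0.28 ± 0.18 and the ADP-ribosyltransferase Parp14 by -1.07 ± 0.33 (adjusted p = 0.111); neither passed.

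Xaf1, a pro-apoptotic protein that binds the caspase inhibitor XIAP (probe set 10378068), measured 8.24 and 8.36 on the WT untreated arrays and 6.90, 7.43 and 7.54 on the WT SRBC arrays. In Notch2-11cKO it measured 7.54 and 7.64 without treatment and 7.26, 7.37 and 7.47 after SRBC. The 2 WT untreated arrays were the highest of the 10, and Xaf1 fell by 1.01 ± 0.21 in WT (adjusted p = 0.0237; the adjusted p was 0.166 without WT untreated 1 and 0.187 without WT untreated 2). Of the remaining genes of this mixed group, Sp100 differed by -0.56 ± 0.21, the nuclear protein Daxx by -0.21 ± 0.22, Ifi35 by -0.20 ± 0.25 and the secreted glycoprotein Lgals3bp by -0.099 ± 0.27 in WT, and none passed.

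**Figure D2:**
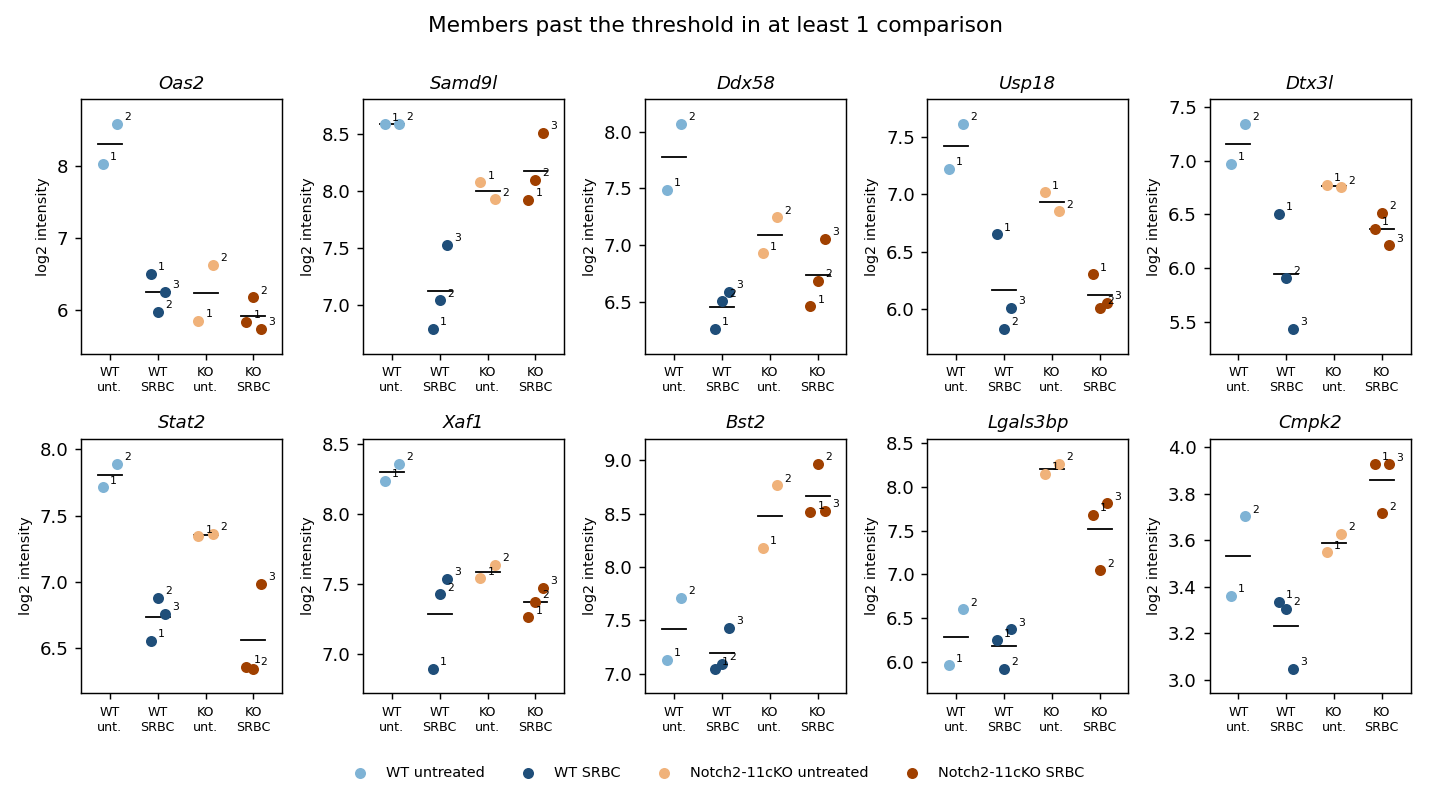
Log2 intensity of the 10 interferon-stimulated genes that passed the threshold in at least 1 comparison; points are arrays with their replicate number, bars are group means, KO stands for Notch2-11cKO and unt. for untreated. For Oas2 and Xaf1 the 2 WT untreated arrays sit above the other 8, and for Bst2 and Lgals3bp every Notch2-11cKO array sits above every WT array.

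The fall in WT rested on 2 untreated arrays. Without WT untreated 1, 2 of the 35 passed (Ddx58 and Oas2), where 0.507% of all genes did. Without WT untreated 2 Oas2 alone passed (0.998% of all genes), and without WT SRBC 3 there were 4 (Ddx58, Oas2, Samd9l and Xaf1; 1.94% of all genes). The median of the 35 was -0.26 without WT untreated 2, with 25 negative. Dissociation stress genes moved with this comparison. Over all genes 1.97% fell and 1.82% rose, and these shares also stand beside the marker lists below. Of 22 stress genes 10 fell and 0 rose, among them Hsph1 (-4.69 ± 0.25, adjusted p = 9.14e-06) and Dnajb1 (-3.10 ± 0.30, adjusted p = 0.000477), both heat shock chaperones. Their summed intensity was 49057 to 51563 in WT untreated and 19354 to 26568 in WT SRBC. With the mean of the stress genes as a covariate 4 of the 35 were lower in WT (Ifih1, Ifit1, Ifit2 and Rtp4), none of them among the 7, and 0.12% of all genes passed; the median of the 35 was then -1.41, with 32 negative. Macrophage markers also moved, with 3 of 12 higher (Vcam1, C1qc and Spic) and a summed intensity of 824 to 888 in WT untreated against 1512 to 2134 in WT SRBC. Of 7 neutrophil markers 1 was higher, S100a8 (2.85 ± 0.46, adjusted p = 0.00658), and their summed intensity was 154 to 173 in WT untreated and 311 to 443 in WT SRBC. That sum rose through S100a8 and S100a9, whose mean went from 4.43 to 6.93 for S100a9, while the mean of Csf3r went from 5.21 to 4.57. The median difference of the 7 was 0.049, with 5 positive and 2 negative. Of 9 cDC1 markers 2 were higher and 1 lower, and of 12 cDC2 markers 2 were lower, Itgam (-1.44 ± 0.19, adjusted p = 0.00261) and Cd4 (-1.32 ± 0.20, adjusted p = 0.00508). The part of the marker lists in the result was not tested.

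Of the 35, 10 stood at least 1 log2 unit higher on Notch2-11cKO SRBC 3 than on both other arrays of its group and 0 stood as far below; this held for 1.07% of all genes upward and 0.537% downward. The 10 were Ifih1, Dhx58, Ifit1, Ifit2, Ifit3, Oasl1, Mx2, Rsad2, Rtp4 and Parp14, and those given in full here were chosen after their values were seen. On WT SRBC 1, Ifit1 and Rtp4 stood at least 1 log2 unit below and Mx1 and Herc6 as far above both other arrays. Over all genes this held for 1.63% downward and 1.01% upward. Of these 10 genes 6 had a promoter window, and 4 of the 6 (66.7%; Ifih1, Ifit1, Ifit3 and Rsad2) held the response element core, against 42.3% of all 26 windows and 2 of 5 (Ddx58 and Stat2) among the genes that fell in WT; with so few windows no difference is read from these shares.

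The IFIT proteins bind viral RNA that lacks a host cap. Ifit1 measured 5.26 and 5.48 in WT untreated, 4.28, 6.54 and 6.92 in WT SRBC, 5.43 and 4.99 in Notch2-11cKO untreated and 5.14, 5.24 and 9.66 in Notch2-11cKO SRBC. It had the widest range of the 35, with WT SRBC 1 lowest and Notch2-11cKO SRBC 3 highest, and WT SRBC 2 and 3 above every untreated array. Ifit2 measured 5.14 and 5.37 in WT untreated, 4.01, 4.90 and 4.88 in WT SRBC, 4.59 and 4.64 in Notch2-11cKO untreated and 4.77, 4.14 and 7.17 in Notch2-11cKO SRBC. Ifit3, whose close copy Ifit3b could share signal with it, measured 7.75 and 7.79 in WT untreated, 6.26, 7.18 and 7.52 in WT SRBC, 6.24 and 6.99 in Notch2-11cKO untreated and 6.66, 6.60 and 8.32 in Notch2-11cKO SRBC. For both, all WT SRBC arrays lay below the WT untreated arrays and Notch2-11cKO SRBC 3 was the highest of the 10.

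Other genes had the same high array. Oasl1 measured 5.96 and 5.62 in WT untreated, 5.65, 6.59 and 6.77 in WT SRBC, 5.77 and 6.70 in Notch2-11cKO untreated and 5.97, 5.81 and 9.38 in Notch2-11cKO SRBC. Mx2, the second Mx GTPase, measured 4.75 and 4.27 in WT untreated, 3.59, 3.99 and 4.16 in WT SRBC, 4.60 and 4.87 in Notch2-11cKO untreated and 4.50, 4.17 and 7.63 in Notch2-11cKO SRBC. Both were highest on Notch2-11cKO SRBC 3, and the other 2 arrays of that group lay within the Notch2-11cKO untreated range for Oasl1 and below it for Mx2. Rsad2, which encodes viperin and makes a chain-terminating nucleotide, measured 6.23 and 6.99 in WT untreated, 6.91, 6.30 and 6.68 in WT SRBC, 6.08 and 6.94 in Notch2-11cKO untreated and 7.34, 6.90 and 9.04 in Notch2-11cKO SRBC. Ifih1 measured 7.66 and 7.86 in WT untreated, 7.35, 8.21 and 8.16 in WT SRBC, 7.37 and 7.74 in Notch2-11cKO untreated and 7.62, 7.85 and 10.11 in Notch2-11cKO SRBC. For each of them the highest array was again Notch2-11cKO SRBC 3.

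Mx1 and Herc6 stood apart from this pattern on WT SRBC 1. Mx1 measured 5.08 and 5.36 in WT untreated, 6.85, 5.25 and 5.24 in WT SRBC, 6.08 and 6.08 in Notch2-11cKO untreated and 6.90, 6.91 and 7.57 in Notch2-11cKO SRBC. All Notch2-11cKO SRBC arrays exceeded the untreated ones (1.04 ± 0.41, adjusted p = 0.419), while in WT only array 1 of the SRBC group did. Herc6, the mouse ligase that attaches ISG15, measured 7.42 and 7.69 in WT untreated, 8.18, 7.12 and 7.11 in WT SRBC, 6.60 and 6.93 in Notch2-11cKO untreated and 7.60, 7.34 and 7.63 in Notch2-11cKO SRBC. WT SRBC 1 was the highest of the 10 for Herc6, and the Notch2-11cKO SRBC arrays exceeded their untreated arrays without overlap (0.75 ± 0.30, adjusted p = 0.422).

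Ifnb1, the gene of interferon-beta, measured 3.55 and 3.43 in WT untreated, 3.98, 4.25 and 5.78 in WT SRBC, 4.81 and 5.25 in Notch2-11cKO untreated and 4.97, 4.27 and 8.19 in Notch2-11cKO SRBC. Its highest array was Notch2-11cKO SRBC 3 and its lowest were those of WT untreated. Both WT untreated arrays lay below all WT SRBC arrays, and no comparison passed the threshold (1.18 ± 0.90, adjusted p = 0.58, for the WT response). Ifnb1 values under the median gene level of 5.06 were not shown to be above background, as no detection calls were used.

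**Figure D3:**
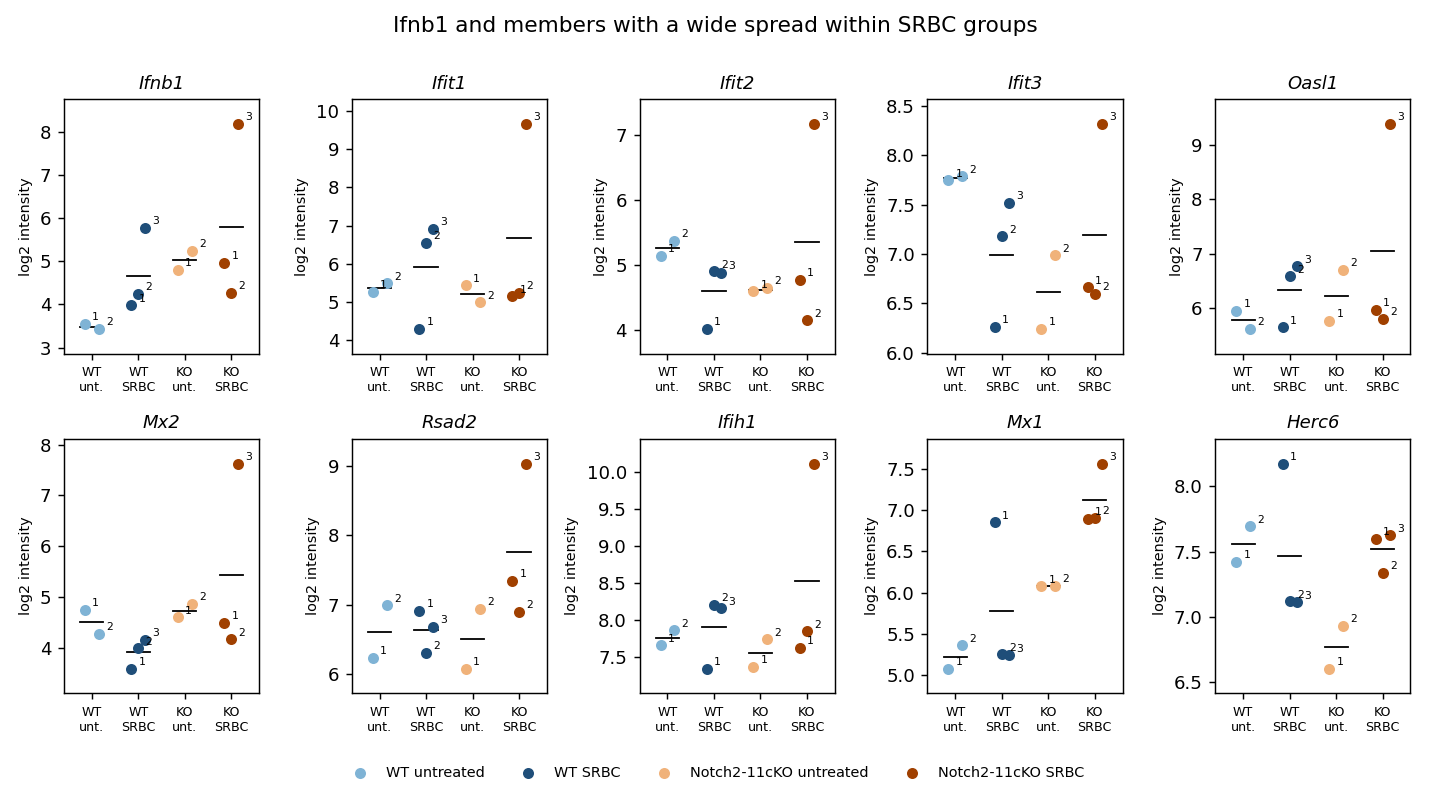
Log2 intensity of Ifnb1 and of 9 interferon-stimulated genes with a wide spread within the SRBC groups; points are arrays with their replicate number, bars are group means, KO stands for Notch2-11cKO and unt. for untreated. Array 3 of Notch2-11cKO SRBC is the highest of the 10 for every gene shown except Herc6, and array 1 of WT SRBC is low for Ifit1 and high for Mx1 and Herc6.

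In Notch2-11cKO cDC2 no interferon-stimulated gene passed the threshold after SRBC. In limma's fit 0 of 35 passed, where 0.306% of all genes did, and 7 of the 35 (20.0%) had an unadjusted p under 0.05, against 10% of all genes. The smallest adjusted p was that of Stat2 (0.193). The median difference was 0.083, against 0.031 over all genes, with 23 positive and 12 negative. Every SRBC array was above the untreated arrays for 3 of the 35 (16.1% of all genes) and below for 6 (12.2%). The largest positive differences carried wide errors: Ifit1 differed by 1.47 ± 1.15, Rsad2 by 1.25 ± 0.52, Mx1 by 1.04 ± 0.41 and Ifih1 by 0.98 ± 0.59. The sign of this median changed with the setting: it was -0.59 with the stress gene mean as a covariate (9 positive and 26 negative), -0.0073 with the replicate block (17 and 18) and -0.0015 without Notch2-11cKO untreated 1 (17 and 18). Without Notch2-11cKO SRBC 3 the median was -0.077 with 14 positive and 21 negative, and Ifit1 differed by -0.019 ± 0.64, adjusted p = 0.995. Without WT SRBC 1, which enters only through the shared estimate of the spread, Mx1 passed as higher (1.04 ± 0.21, adjusted p = 0.0489). In that setting 0.918% of all genes passed. Stress genes fell here too, 4 of 22, against 0.166% of all genes. Their summed intensity was 42404 to 43392 without treatment and 19653 to 31043 after SRBC. The mean of the stress genes was 10.30 and 10.47 without treatment and 9.71, 9.49 and 8.82 after SRBC. As a covariate it can therefore not be told apart from SRBC here either. S100a8 was again the neutrophil marker that was higher (3.07 ± 0.46, adjusted p = 0.0263), where 0.14% of all genes were. The sums over the 7 markers were 204 to 421 without treatment and 442 to 1082 after SRBC. The median difference of these 7 was 0.074, with 4 positive and 3 negative.

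**Figure D4:**
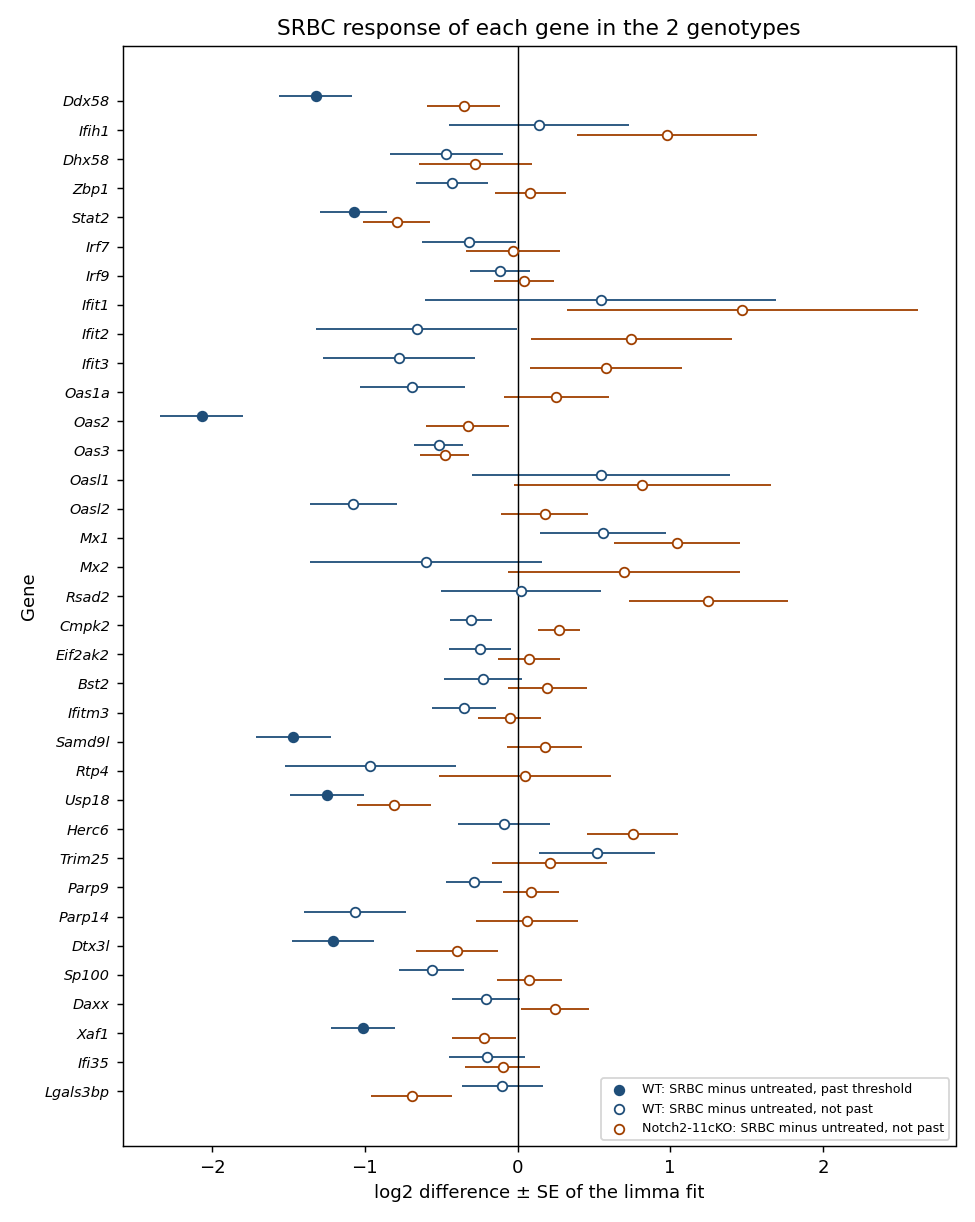
Difference between SRBC and untreated arrays for each of the 35 genes in WT (blue) and Notch2-11cKO (brown), on the log2 scale with bars of 1 standard error of the limma fit; filled points passed the threshold. In WT 29 of 35 points lie below 0 and 7 are filled, and in Notch2-11cKO 23 lie above 0 and 0 are filled.

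The difference between the responses was tested as an interaction, the Notch2-11cKO response minus the WT response. It was positive for 33 of the 35, with a median of 0.57 against 0.0081 over all genes, but 0 of the 35 passed in limma's fit (4 genes, 0.0201%, did over all, 0.01% in each direction). At an unadjusted p under 0.05 there were 7 of the 35, against 6.47% of all genes. The smallest adjusted p were those of Samd9l (1.65 ± 0.35, adjusted p = 0.214) and Oas2 (1.74 ± 0.38, adjusted p = 0.248). Trim25 (-0.31 ± 0.54) and Lgals3bp (-0.59 ± 0.38) were the 2 negative ones. Without the 2 arrays that stood apart, 4 of the 35 passed (3.03% of all genes): Oas2 (1.96 ± 0.38, adjusted p = 0.0187), Samd9l (1.31 ± 0.26, adjusted p = 0.0215) and Herc6 (1.14 ± 0.26, adjusted p = 0.038) as more positive in Notch2-11cKO, and Ifit1 (-1.38 ± 0.27, adjusted p = 0.0215) as more positive in WT.

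Leaving out those 2 arrays also changed the responses themselves, and the standard errors became smaller. Both arrays were picked because they differed from their groups in these same data, and that choice itself favours a smaller spread. The p-values of each fit without them, the interaction above included, describe this setting only and are not independent support. In WT 12 of the 35 then passed, where 11.5% of all genes did. Ifit1 (1.36 ± 0.19, adjusted p = 0.000869), Oasl1 (0.89 ± 0.26, adjusted p = 0.0493) and Trim25 (0.84 ± 0.18, adjusted p = 0.0114) were higher, and Oasl2 and Parp14 joined the 7 that were lower. In Notch2-11cKO Mx1 (0.82 ± 0.16, adjusted p = 0.0239) was higher and Stat2 lower, where 2% of all genes passed.

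Between the untreated genotypes, 1 of the 35 was higher and 1 lower in Notch2-11cKO, where 5.11% of all genes passed, 2.95% as higher and 2.16% as lower. The median of the 35 was -0.19, against -0.024 over all genes; 24 were negative and 11 positive. This median was -0.37 without WT untreated 1 and -0.36 without Notch2-11cKO untreated 2, but -0.069 without WT untreated 2 and -0.046 without Notch2-11cKO untreated 1, with 20 negative in each of these last cases. Every Notch2-11cKO array was below both WT arrays for 15 of the 35 (26.8% of all genes) and above for 5 (22.0%). Lgals3bp, a secreted galectin-binding glycoprotein (probe set 10393573), measured 5.97 and 6.60 in WT untreated and 8.15 and 8.26 in Notch2-11cKO untreated. The groups did not overlap and Lgals3bp was higher by 1.92 ± 0.29 in Notch2-11cKO (a 3.78-fold difference, adjusted p = 0.00242). Oas2, with the array values given above, differed by -2.07 ± 0.30 (adjusted p = 0.00165). This comparison and the WT response share the 2 WT untreated arrays, on which Oas2 was high. Bst2 differed by 1.05 ± 0.28 and did not pass (adjusted p = 0.0577). Without WT SRBC 1, 7 of the 35 passed, where 6.97% of all genes did: Bst2, Lgals3bp and Mx1 as higher, and Herc6, Oas2, Sp100 and Xaf1 as lower.

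After SRBC, 4 of the 35 were higher in Notch2-11cKO than in WT and 0 were lower, where 5.32% of all genes passed and 3.36% passed as higher. All 4, Bst2, Lgals3bp, Samd9l and Cmpk2, differed without overlap between the groups, but Cmpk2 was too dim to be shown to lie above background. The median of the 35 was 0.52, against -0.02 over all genes, with 28 positive; every Notch2-11cKO array was above every WT array for 13 of the 35 (37.1%, against 9.96% of all genes) and below for 0 (10.4% of all genes). Without Notch2-11cKO SRBC 3 the median was 0.033, 20 were positive, and 5 passed, Zbp1 being added, where 6.09% of all genes passed.

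Bst2, the membrane tether that holds budding virus on the cell (probe set 10579532), measured 7.05, 7.10 and 7.43 in WT SRBC and 8.51, 8.97 and 8.53 in Notch2-11cKO SRBC. Without treatment it measured 7.13 and 7.71 in WT and 8.18 and 8.77 in Notch2-11cKO. Every Notch2-11cKO array exceeded every WT array under both conditions, and after SRBC Bst2 was higher by 1.48 ± 0.23 (a 2.78-fold difference, adjusted p = 0.00299). Bst2 is also a known surface marker of plasmacytoid dendritic cells. Of 10 markers of those cells 3 were higher and 1 lower in each genotype comparison. Over all genes 2.95% were higher and 2.16% lower without treatment, and 3.36% and 1.96% after SRBC. The summed intensity of the 10 was 891 to 979 in WT untreated, 707 to 1041 in WT SRBC, 1120 to 1207 in Notch2-11cKO untreated and 819 to 1353 in Notch2-11cKO SRBC. Without treatment 7 differences were positive and 3 negative. Untreated group means (WT, then Notch2-11cKO) were 6.10 and 7.48 for Cox6a2, 7.12 and 8.02 for Tcf4, 3.99 and 6.29 for Cd209d and 6.93 and 8.51 for Spib. For Lair1 they were 8.53 and 6.08. Siglech lay between 4.74 and 5.26 on all 10 arrays. The part of these cells in the Bst2 difference was not tested. Lgals3bp measured 6.25, 5.93 and 6.38 in WT SRBC and 7.68, 7.05 and 7.81 in Notch2-11cKO SRBC. The groups did not overlap, and it was higher by 1.33 ± 0.24 (adjusted p = 0.00739).

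Cmpk2, a mitochondrial nucleotide kinase whose gene neighbours Rsad2 (probe set 10395039), was the dimmest of the 35, at 3.33, 3.30 and 3.05 in WT SRBC and 3.93, 3.72 and 3.93 in Notch2-11cKO SRBC. Without treatment it measured 3.36 and 3.70 in WT and 3.55 and 3.63 in Notch2-11cKO. The median gene level was 5.06, and with no detection calls used these values were not shown to be above background. After SRBC it was higher in Notch2-11cKO by 0.63 ± 0.12 (adjusted p = 0.0122), and the adjusted p was 0.0552 without Notch2-11cKO SRBC 1. It was the one gene of the 35 with every SRBC array below the untreated arrays in WT and above them in Notch2-11cKO, an arrangement found in 1.5% of all genes. Samd9l, with the values given above, was higher by 1.06 ± 0.22 (adjusted p = 0.0161); the adjusted p was 0.063 without WT SRBC 2. This comparison shares the WT SRBC arrays with the WT response, in which Samd9l fell. Genes without overlap that did not pass included Mx1 (1.34 ± 0.37, adjusted p = 0.0634), Oasl2 (0.87 ± 0.25, adjusted p = 0.0793) and Parp14 (0.99 ± 0.30, adjusted p = 0.0871).

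Without the 2 arrays that stood apart, 10 of the 35 passed between genotypes after SRBC, where 11.9% of all genes did. Deviations from the group mean on WT SRBC 1 correlated with those on Notch2-11cKO SRBC 1 and 2 (r = 0.479 and 0.234). Those on Notch2-11cKO SRBC 3 correlated with those on WT SRBC 2 and 3 (r = 0.409 and 0.403). The arrays left in this fit differ by genotype and by this split alike, so genotype and split cannot be told apart. The same limit applies to the interaction without those 2 arrays. Bst2, Cmpk2, Dtx3l, Lgals3bp, Mx1 (1.66 ± 0.16, adjusted p = 4.9e-05), Samd9l and Zbp1 were higher in Notch2-11cKO, and Ifit1 (-1.54 ± 0.19, adjusted p = 0.000379), Trim25 (-1.12 ± 0.18, adjusted p = 0.00198) and Rtp4 were lower. With all arrays Ifit1 had differed by 0.77 ± 1.03 in the other direction (adjusted p = 0.785).

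**Figure D5:**
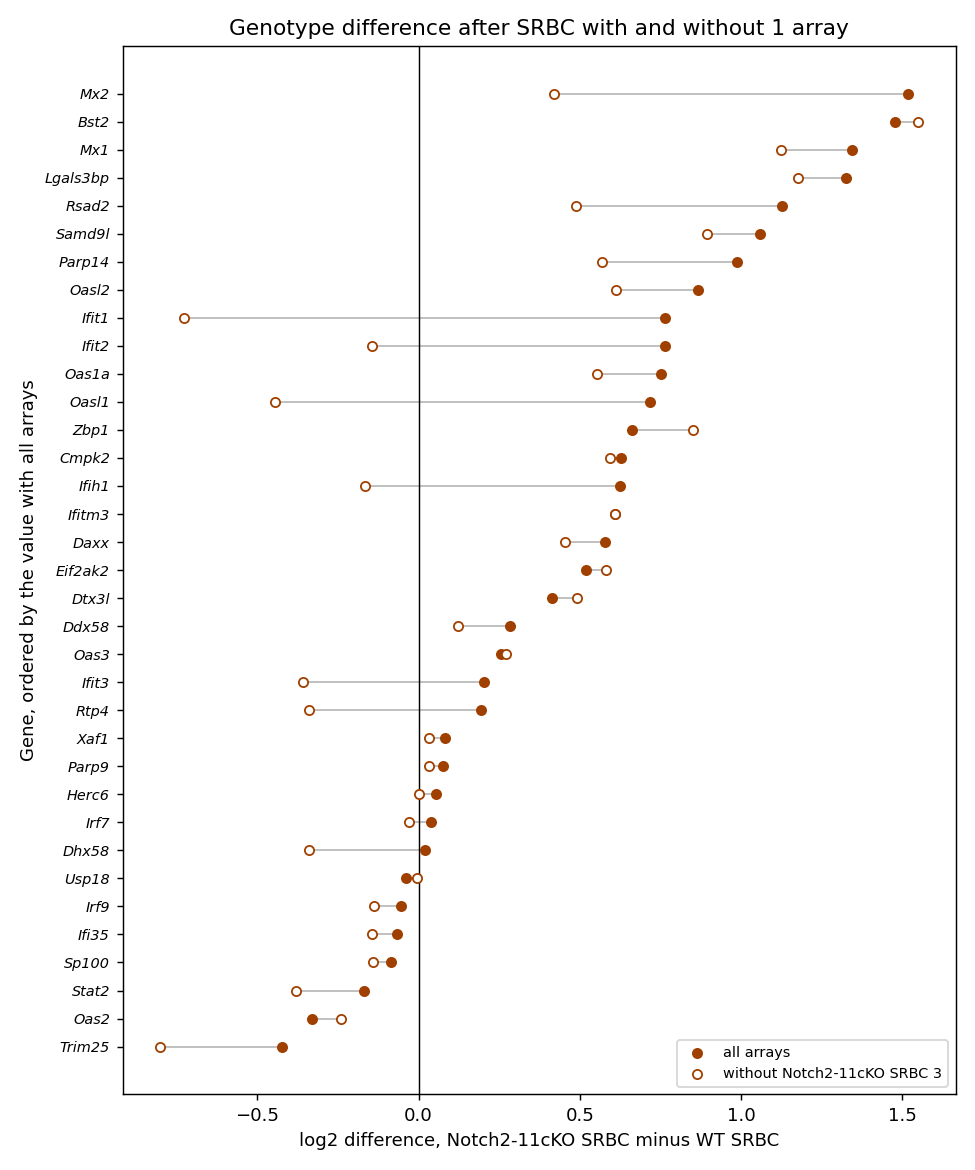
Difference between Notch2-11cKO SRBC and WT SRBC for each of the 35 genes on the log2 scale, with all arrays (filled) and without Notch2-11cKO SRBC 3 (open). With all arrays 28 points lie above 0, and without that array 20 do; Bst2 and Lgals3bp stay far to the right in both.

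Lists of genes used as markers of other myeloid cells moved with both genotype comparisons. Over all genes 2.95% were higher and 2.16% lower without treatment, and 3.36% and 1.96% after SRBC. Monocyte markers were higher for 4 of 9 in each, and 1, Treml4, was lower without treatment (-1.40 ± 0.32, adjusted p = 0.0278). Those that were higher included Ccr2 (4.29 ± 0.29 after SRBC, adjusted p = 1.26e-05) and Lyz2 (2.59 ± 0.16, adjusted p = 7.53e-06), and the summed intensity of the 9 was 5765 to 5985 in WT untreated, 2687 to 4287 in WT SRBC, 11770 to 13140 in Notch2-11cKO untreated and 8857 to 11068 in Notch2-11cKO SRBC. Such sums follow the brightest gene. In WT untreated this was Nr4a1, also a stress list gene, at 12.03 and 12.04, against 11.24, 10.33 and 10.12 in WT SRBC. In the WT response 0 of the 9 monocyte markers passed, where 3.79% of all genes did. Macrophage markers were higher for 6 of 12 without treatment and for 7 of 12 after SRBC, with sums of 2046 to 2698 and 2674 to 3124 in Notch2-11cKO. Of the cDC1 markers 4 of 9 were higher and 1 lower without treatment, and 3 were higher and 1 lower after SRBC. Neutrophil markers were higher for 1 of 7 without treatment and for 2 of 7 after SRBC. Whether the RNA of these list genes came from the cDC2 themselves or from other cells among those sorted was not tested. The part of these lists in the genotype differences of Lgals3bp, Bst2, Cmpk2 and Samd9l was not tested either.

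The upstream genes of the pathway were read from a list of further ligands, receptors, regulators and stimulated genes, of which 74 were measured. In the WT response 2 of 74 rose and 7 fell, against 1.82% and 1.97% of all genes. Of the 41 further stimulated genes in this list 5 fell and 0 rose, with a median of -0.13, 24 negative and 17 positive. Ptpn2, a phosphatase that dampens JAK signalling, rose by 1.05 ± 0.17 (adjusted p = 0.00764); Slfn5 (-1.20 ± 0.24), the phosphatase gene Ptpn6 (-1.07 ± 0.22), the DNA sensor gene Tlr9 (-0.84 ± 0.17), Ifi203 (-1.05 ± 0.22) and Lgals9 (-0.98 ± 0.22) fell. In the Notch2-11cKO response Ptpn2 was the one gene of the 74 that passed, at 1.01 ± 0.17 (adjusted p = 0.0416), where 0.306% of all genes did. In the interaction 0 of 74 passed in limma's fit, with 13 at an unadjusted p under 0.05, against 6.47% of all genes. The 41 further stimulated genes had a median of 0.19 there, with 27 positive and 14 negative.

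Ifnk, the gene of interferon-kappa, measured 4.07 and 4.05 in WT untreated, 3.97, 3.52 and 3.79 in WT SRBC, 5.82 and 5.82 in Notch2-11cKO untreated and 5.65, 5.28 and 5.83 in Notch2-11cKO SRBC. Every Notch2-11cKO array lay above every WT array, and Ifnk was higher by 1.76 ± 0.19 without treatment (adjusted p = 0.000295) and by 1.83 ± 0.16 after SRBC (adjusted p = 5.85e-05). All WT values of Ifnk lay below the median gene level of 5.06. As no detection calls were used, they were not shown to be above background. Without treatment 7 of 74 were higher in Notch2-11cKO and 2 lower, against 2.95% and 2.16% of all genes, and after SRBC 12 were higher and 1 lower, against 3.36% and 1.96%. Those named by the smallest p without treatment were, beside Ifnk, the signalling inhibitor Socs3 (2.00 ± 0.24), the kinase gene Ikbke (1.55 ± 0.20), the RNA sensor gene Tlr7 (-1.64 ± 0.26) and the transcription factor genes Irf1 (1.5 ± 0.24) and Irf8 (1.93 ± 0.36). After SRBC they were Ifi203 (1.60 ± 0.20), Socs3 (1.49 ± 0.20), Slfn5 (1.52 ± 0.21), Ikbke (0.98 ± 0.17) and Slfn2 (1.48 ± 0.25), all higher in Notch2-11cKO.

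Of the receptor and its kinases, Ifnar1 was higher in untreated Notch2-11cKO by 0.84 ± 0.20 (adjusted p = 0.0324), with 7.62 and 7.76 in WT untreated, 8.17, 8.48 and 8.30 in WT SRBC, 8.58 and 8.48 in Notch2-11cKO untreated and 8.69, 8.35 and 8.51 in Notch2-11cKO SRBC. Both WT untreated arrays were the lowest of the 10. Ifnar2, Jak1, Tyk2 and the transcription factor gene Irf3 passed in no comparison; in the WT response they differed by -0.27 ± 0.27, 0.13 ± 0.16, -0.066 ± 0.27 and -0.27 ± 0.24.

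The interferon-gamma-induced GTPases, which attack vacuoles of intracellular microbes, were a further related list. Of 10, 0 passed in either SRBC response, where 3.79% of all genes did in WT and 0.306% in Notch2-11cKO. In each genotype comparison 3 of 10 were higher in Notch2-11cKO, against 2.95% of all genes without treatment and 3.36% after SRBC. Without treatment these were Gbp7 (2.03 ± 0.21, adjusted p = 0.000185), Gbp3 (2.62 ± 0.30, adjusted p = 0.000368) and Iigp1 (0.95 ± 0.23, adjusted p = 0.0351), and after SRBC Gbp7 (1.54 ± 0.17), Gbp3 (2.10 ± 0.25) and Irgm1 (0.90 ± 0.19). The GTPase genes belong to families of similar copies, so their probe sets may share signal. No test of the difference between this list and the 35 genes was made.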

How the data were processed

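Biotin-labelled RNA of sorted splenic cDC2 was measured on Affymetrix Mouse Gene 1.0 ST arrays. The values deposited by the authors are linear intensity that they had normalized across arrays; which method they used was not given in the sources used here. A value for each of 28853 probe sets was present on all 10 arrays. Of these, 21789 listed 1 gene symbol, 1621 several and 5443 none in the platform annotation, and each of 19938 genes was read from its probe set with the highest mean; genes were not filtered by level. No detection calls or slide or scan dates were used.

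Values were taken to log2 and fitted with limma 3.58.1 in R 4.3.3 (lmFit, then eBayes with trend; degrees of freedom 6 residual and 5.25 prior), fitting 1 mean per group over 4 groups. The 5 comparisons were the SRBC response in each genotype, Notch2-11cKO against WT in each condition, and the interaction. Tests were two-sided and adjusted over all genes by the Benjamini-Hochberg method; every p in the text is limma's. The fit was tested on simulated data.

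The genes and lists described were chosen with earlier results of these data known, so no list is given a test of its own. Values on every array are given for each gene past the threshold in any comparison, for the 3 brightest and for those said to be chosen after their values were seen. Pathway genes were named by the smallest p, up to 6 a comparison, with Ifnb1, Ifnar1, Ifnar2, Jak1, Tyk2 and Irf3 whatever their p, and marker and stress genes up to 4 a list. Alternatives covered probe sets, normalization, an added constant, the variance model, array weights, covariates, thresholds and left-out arrays. The remaining steps used pandas 2.3.3, NumPy 2.4.6 and matplotlib 3.10.9 under Python 3.11.15.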

Additional observations from a re-analysis of the deposited data

How the results depend on the processing

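The calls on Bst2 after SRBC, on Lgals3bp in both genotype comparisons and on Oas2 between untreated genotypes kept their direction and their side of the threshold in all 25 alternatives. Counts of calls are given with the share of all genes that passed under the same setting. In the WT response the count of 7, all lower, became 11 with the replicate block (3.59%), 4 with the stress gene mean as a covariate (0.12%), 12 without both arrays that stood apart (11.5%; 9 lower, 3 higher) and between 1 and 9 without single arrays (0.507% to 6.68%). In the Notch2-11cKO response the count of 0 became 1 with array weights (Stat2 lower; 1.34%), 1 with the stress covariate (Ifit1 lower; 0.0351%), between 0 and 1 without single arrays (0.01% to 0.918%) and 2 without both arrays (2%). Between untreated genotypes the count of 2 became 5 with array weights (9.14%), 10 with only the groups compared (9.86%), 8 with the stress covariate (6.64%), between 2 and 7 without single arrays (2.1% to 6.97%) and 8 without both (10%). After SRBC the count of 4 became 7 with the replicate block (6.62%), 14 with the stress covariate (6.92%), 8 at an adjusted p under 0.1 (8.03%), between 3 and 5 without single arrays (3.26% to 6.3%) and 10 without both (11.9%). In the interaction the count of 0 became 1 with the stress covariate (Ifit1, more positive in Notch2-11cKO; 0.0351%) and 4 without both (3.03%). The cause of these shifts was not tested. The stress gene mean was lower on every SRBC array than on every untreated array. SRBC responses fitted with it as a covariate can therefore not be told apart from it. Among the genes of the Notch2-11cKO response recomputed one by one, the signs that changed were, with the stress covariate, Ifit1 (-4.07), Ifit2 (-2.15), Ifih1 (-1.69), Oasl1 (-2.73), Mx2 (-2.43) and Rsad2 (-0.19), and, without Notch2-11cKO SRBC 3, with or without WT SRBC 1, Ifit1 (-0.019), Ifit2 (-0.16), Oasl1 (-0.34) and Mx2 (-0.40); leaving out other single arrays raised these to at most 2.24, 1.35, 1.44 and 1.33. Over all 35 the positive count of that response went from 23 to 14 without Notch2-11cKO SRBC 3, as Oasl2, Rtp4, Trim25, Parp14 and Irf9 also changed sign. Whether the replicate numbers pair the samples is not known. Deviations of the 13 same-numbered pairs correlated between -0.218 and 0.479 (median 0.104), with 7 above 0.1. Those of the 24 other pairs correlated between -0.507 and 0.409 (median -0.104), with 7 above 0.1. Deviations within a group cancel out, so these sets of pairs are linked and do not settle the pairing. The block is therefore given as a setting only. Among the 7 genes of the WT response, Dtx3l lost its call in 9 of 25 alternatives, Usp18 in 6, Stat2 and Xaf1 in 4 each, Samd9l in 3, Ddx58 in 2 and Oas2 in 1 (the stress covariate); all kept their direction. With 2 arrays in each untreated group, differences near log2 1 can be missed.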
